A study of Mus musculus with 145 samples.

Results

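The 10 genes described here, Piwil2, Piwil4, Mov10l1, Mael, Asz1, Ddx4, Tdrd1, Tdrd9, Fkbp6 and Gtsf1, encode proteins of the PIWI-interacting RNA (piRNA) pathway. They were taken as a named list, and all 10 were among the 24501 genes with at least 1 count in the single-cell RNA data. Mouse spermatogonial stem cells (SSCs) were followed while some of them turned into pluripotent cells in culture, and single cells were sequenced with a modified STRT-seq protocol, which counts transcripts at 1 end by unique molecular identifiers (UMIs). The reprogramming series, named SSCR, held 46 libraries from days 0, 8, 10, 12, 14, 16, 18, 20, 23 and 27. Further single libraries came from germline-derived pluripotent stem cells, the line gPSC-1 at passages P1 and P15, and from mouse embryonic stem cells (ESCs). A further set of RNA samples came from scTrio-seq2, which reads RNA and DNA methylation from 1 cell: 8 samples from culture with 5 chemicals (5C: SGC707, vitamin C, EGCG, Daphnetin and TUDCA) and 5 from culture with the solvent DMSO.

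The SSCs came from postnatal B6D2F1 male mice that carried an Oct4-EGFP transgene, in which EGFP is driven by the Oct4 promoter. SSCs were reprogrammed on inactivated mouse embryonic fibroblast feeders in SSC medium with EGF, bFGF, GDNF and LIF. The gPSC-1 samples are 1 line at 2 passages, and this line and the ESCs were grown on feeders in N2B27 with 2iL, a pair of kinase inhibitors plus LIF. SSC-like and pluripotent-like colonies were chosen by their look and single cells were taken by mouth pipette, so the numbers of cells per class follow that choice. The cells' classes were those of the deposited annotation: SSC1 to SSC4 (SSC1-4), 4 reprogramming clusters on the successful branch (RPG1 to RPG4), and the failed branches named Fibroblast, Early-pluripotency, Meiotic and Neural. UMIs were added up over the cells of 1 class in 1 library, wherever there were 5 such cells or more, and the library served as the replicate. The SSCR libraries fall into 2 batches, B1 and B2, and within a batch no source used here says which libraries came from separate cultures, so p-values measure the spread between libraries, which may be technical. The classes were drawn by the authors from the same transcriptomes, these 10 genes included, so class comparisons within SSCR describe the classes and are not independent tests.

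The piRNA pathway silences transposons in germ cells. Long precursor transcripts are cut into piRNAs at the surface of mitochondria and in the nuage, a granule near the nucleus, and the piRNAs guide PIWI proteins to matching transposon RNA, which is then sliced, or to matching genomic loci, which are then DNA methylated. In the male germline of the mouse the pathway acts in fetal prospermatogonia, when Piwil2 and Piwil4 are both present, and again in spermatocytes, and most of its genes are close to silent in other tissues. The genes are therefore widely read as a sign of germ cell identity.

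RefSeq promoter windows on GRCm38.p6 were available for 9 of the 10 genes, all but Piwil2. The sequence CACGTG, its own reverse complement, was found in the 250 bases before the first start site of 6 of these 9 genes (Mov10l1, Mael, Ddx4, Tdrd1, Tdrd9 and Fkbp6), against 6.02% of 32851 promoter windows of the same length. Among the 15211 windows with at least 7 CG dinucleotides the share was 9.09%. TCCCGC or its reverse complement GCGGGA was found in 2 of the 9 genes against 16.9% of all windows, CCAAT or ATTGG in 4 against 33.8%, and TATAAA or TTTATA in 1 against 12.4%. A match is a description of the letters and not of a bound site. The 5 windows below are shown because their genes fell together and the shared hexamer lies outside the annotated gene. They end before the first base of the gene in GENCODE vM21, are given 5′ to 3′ on the strand of the gene, and carry CACGTG in capitals. They are chr15:88982744-88982908 (+ strand) for Mov10l1, chr1:166238748-166238994 (− strand) for Mael, chr19:56825959-56826208 (+ strand) for Tdrd1, chr12:111971309-111971558 (+ strand) for Tdrd9 and chr5:135350045-135350294 (− strand) for Fkbp6.
Mov10l1: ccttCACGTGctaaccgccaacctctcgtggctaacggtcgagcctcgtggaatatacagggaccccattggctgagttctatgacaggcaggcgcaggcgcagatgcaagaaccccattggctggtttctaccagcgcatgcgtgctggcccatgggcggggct
Mael: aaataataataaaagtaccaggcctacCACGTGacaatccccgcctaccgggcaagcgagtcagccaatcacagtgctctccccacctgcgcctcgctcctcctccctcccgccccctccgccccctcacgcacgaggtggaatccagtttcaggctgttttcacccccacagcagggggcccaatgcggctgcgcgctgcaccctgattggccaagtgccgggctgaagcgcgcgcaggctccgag
Tdrd1: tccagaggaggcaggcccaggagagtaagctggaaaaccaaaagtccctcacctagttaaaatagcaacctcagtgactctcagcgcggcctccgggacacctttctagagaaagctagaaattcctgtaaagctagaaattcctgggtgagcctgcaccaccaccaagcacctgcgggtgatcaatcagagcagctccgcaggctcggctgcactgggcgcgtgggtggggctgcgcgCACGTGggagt
Tdrd9: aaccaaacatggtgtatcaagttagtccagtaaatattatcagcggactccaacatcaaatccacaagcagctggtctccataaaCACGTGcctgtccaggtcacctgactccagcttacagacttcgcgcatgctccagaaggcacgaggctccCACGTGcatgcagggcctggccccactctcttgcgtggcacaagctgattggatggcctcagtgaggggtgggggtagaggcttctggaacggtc
Fkbp6: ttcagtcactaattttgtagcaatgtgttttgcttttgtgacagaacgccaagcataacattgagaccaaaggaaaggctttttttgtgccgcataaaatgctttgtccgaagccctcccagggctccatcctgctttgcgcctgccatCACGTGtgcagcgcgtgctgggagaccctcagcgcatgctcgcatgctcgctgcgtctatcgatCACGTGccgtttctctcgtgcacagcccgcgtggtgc

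In the Tdrd1 window the hexamer starts 11 bases before the first start site. Tdrd9 has it at 165 and 95 bases and Fkbp6 at 101 and 37 bases, while in Mov10l1 and Mael it lies farther out, at 246 and 223 bases before the RefSeq start. In Ddx4 it lies 29 bases before the RefSeq start and inside the GENCODE gene. Asz1, Gtsf1 and Piwil4 have none in this window. The genes lie on 9 chromosomes, with Mov10l1 and Gtsf1 both on chromosome 15 and far apart: Piwil2 at chr14:70372477-70429383, Piwil4 at chr9:14696230-14740733, Mov10l1 at chr15:88982909-89055152, Mael at chr1:166201201-166238747, Asz1 at chr6:18050964-18109061, Ddx4 at chr13:112598333-112652475, Tdrd1 at chr19:56826209-56870012, Tdrd9 at chr12:111971559-112068854, Fkbp6 at chr5:135291704-135350044 and Gtsf1 at chr15:103402405-103430470.

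The depth was 15975410 to 34609591 UMIs in the 46 SSCR libraries, 10833720 to 14807169 in the 3 cell line libraries, 5880774 to 10723044 in the 8 samples of 5C and 3888311 to 8059618 in the 5 samples of DMSO. No cell name was shared between libraries, and no pair of sums of 1 class agreed within sampling noise, over the classes with 2 sums or more (lowest chi-square per degree of freedom 5.38). The class names were checked against markers. The 5 germ cell markers (Zbtb16, Gfra1, Dazl, Dmrt1, Etv5) summed to 921 to 1906 CPM (counts per 1000000 UMIs, scaled with TMM factors) in the 36 SSC1-4 sums, to 1046 to 1378 in RPG1, to a median of 419 in RPG2, to 298 to 564 in RPG3 and to 213 and 235 in RPG4. The 6 pluripotent markers (Pou5f1, Nanog, Sox2, L1td1, Utf1, Dppa3) summed to 68.3 to 409.8 CPM in SSC1-4, 171 to 456 in RPG1, 2062 to 2792 in RPG2, 1880 to 2819.5 in RPG3 and 898 and 1160.2 in RPG4. RPG1 thus overlapped with SSC1-4 in both lists, while RPG2 to RPG4 were higher in the pluripotent list and lower in the germ cell list. The 6 meiotic markers (Spo11, Sycp1, Sycp3, Dmc1, Prdm9, Stra8) moved with the piRNA genes, at 457 to 1289 CPM in SSC1-4 and 53.3 to 118 CPM in RPG3. Sums of feeder fibroblast markers (Col1a1, Col1a2, Col3a1, Postn, Lum, Thy1) were 13.5 to 149 CPM in SSC1-4 and 11.1 to 44.4 in RPG3, and those of Sertoli markers (Sox9, Amh, Wt1, Clu) were 2.46 to 67.1 and 18 to 57.9 CPM.

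Along the successful branch the 10 genes were fitted slightly lower in RPG1 than in SSC1-4, with none called, and stood at a much lower level in RPG2, RPG3 and RPG4. Their summed level was 2962 ± 448 CPM (SD, n = 36 sums) in SSC1-4, 2431 ± 194 (n = 7) in RPG1, 349 ± 84.4 (n = 3) in RPG2, 397 ± 222 (n = 8) in RPG3 and 156 ± 64.3 (n = 2) in RPG4. In the cell lines, 1 library each, it was 66.2 CPM in gPSC-1 P1, 52.6 in gPSC-1 P15 and 71.0 in ESCs. A sum over cells cannot tell fewer cells with a gene from less RNA per cell, and the values per cell are given further on.

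**Figure D1:**
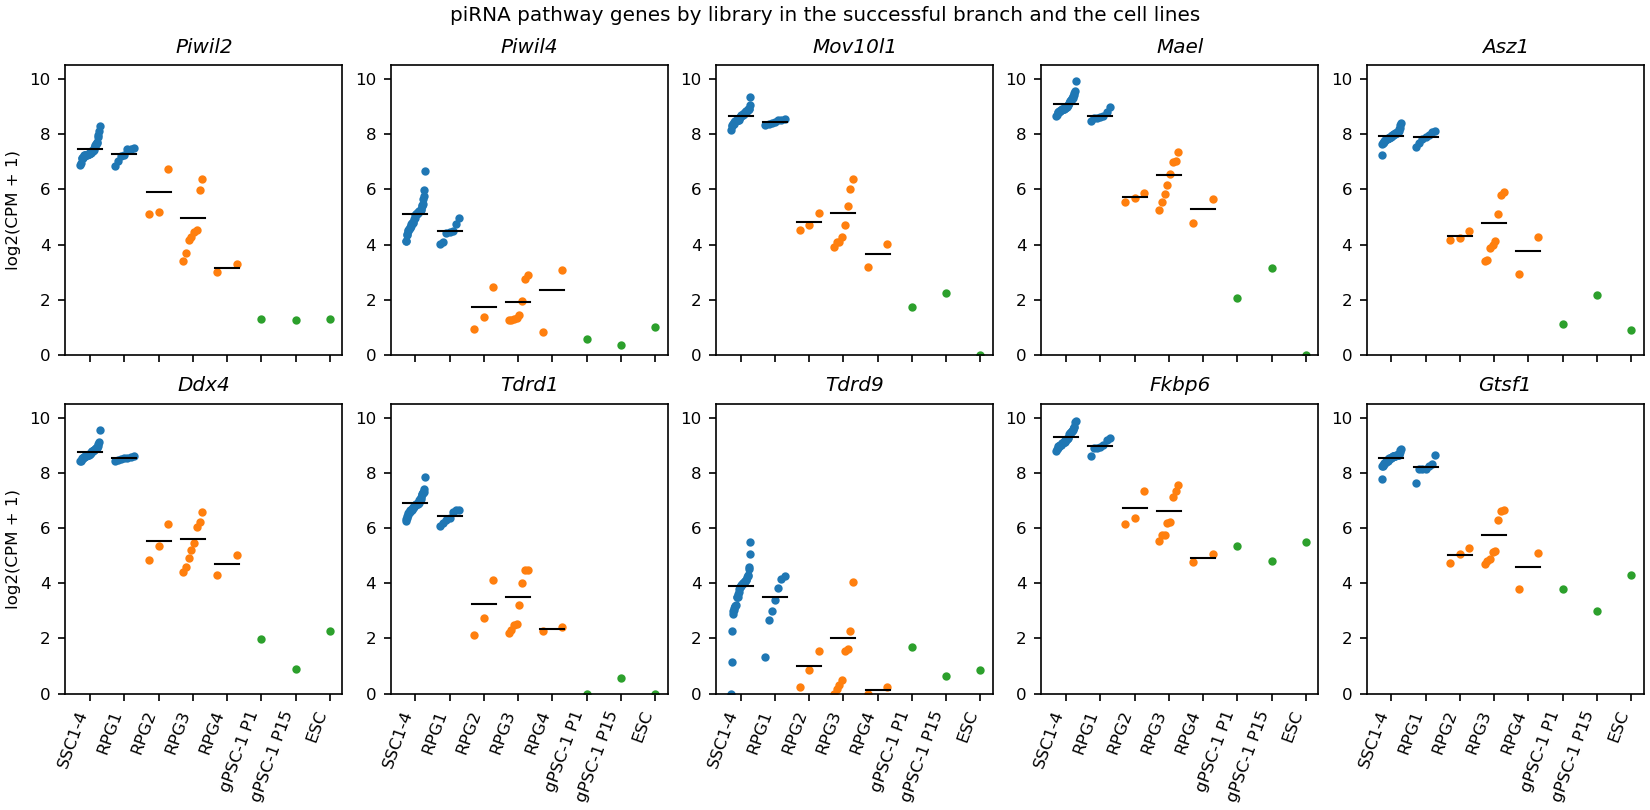
Level of each gene, as log2(CPM + 1), in every sum of a library and class on the successful branch and in the 3 cell line libraries. Each point is 1 sum, sorted by value within its class for legibility, bars are class means, and the summed level of all 10 genes goes from 2962 CPM in SSC1-4 to 397 CPM in RPG3.

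Piwil2, the PIWI protein that slices transposon RNA in the cytoplasm, stood at 118 to 317 CPM in SSC1-4 with a median of 157, and at 115 to 181 CPM in RPG1 with a median of 150. In RPG2 it was 107 CPM in day 12 replicate 2 and 35.5 and 33.4 CPM in day 14 replicates 5 and 6. RPG3 ranged from 9.56 to 81.2 CPM with a median of 19.7, and the RPG4 sums held 8.70 and 7.08 CPM. Every RPG2, RPG3 and RPG4 sum was below the lowest SSC1-4 sum, with the day 12 sum of RPG2 closest to it. The fold change against SSC1-4 was −1.56 ± 0.31 on the log2 scale in RPG2, the smallest fall among the 10 genes there, −2.60 ± 0.22 in RPG3 and −4.46 ± 0.50 in RPG4 (fit ± SE). The call in RPG2 was lost without day 14 replicate 5 (−1.30) or replicate 6 (−1.29) and when counts were added up by batch and day instead (−1.22). With only the 2 libraries that held both classes and no block, the calls in RPG2 (−1.97) and RPG3 (−2.2) were lost.

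Piwil4, the nuclear PIWI protein that guides transposon methylation, was at 16.7 to 100.1 CPM in SSC1-4 with a median of 32.8. It was at 15.4 to 30.4 CPM in RPG1 and fell to 4.46, 1.61 and 0.923 CPM in the 3 RPG2 sums and to 1.41 to 6.36 CPM in RPG3. The ranges of RPG3 and SSC1-4 do not overlap, and the fold change was −3.67 ± 0.36. In RPG4 the day 20 replicates 1 and 2 differed, at 7.52 and 0.765 CPM, and the call against SSC1-4 (−3.12 ± 0.68) was lost without replicate 2 (−2.14).

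Mov10l1, the RNA helicase that feeds piRNA precursors into processing, showed the deepest fitted fall of the 10 genes in RPG2 and, leaving out Tdrd9, in RPG4. It stood at 287 to 656 CPM in SSC1-4 with a median of 398 and at 323 to 377 CPM in RPG1. The RPG2 sums held 34, 21.8 and 24.9 CPM, those of RPG3 14.2 to 81.8 CPM with a median of 21.8, and those of RPG4 15.4 and 8.04 CPM. No RPG2, RPG3 or RPG4 sum reached the SSC1-4 range. The fold changes were −3.91 ± 0.31, −3.58 ± 0.19 and −5.16 ± 0.42. The next deepest falls were within the SEs of these, with Piwil4 at −3.87 ± 0.58 in RPG2 and Tdrd1 at −4.85 ± 0.53 in RPG4.

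Asz1, a scaffold of the nuage that sits on mitochondria, was the gene with the smallest shift into RPG1 (−0.06 ± 0.16). It was at 151 to 336 CPM in SSC1-4 with a median of 242 and at 186 to 274 CPM in RPG1. The RPG2 sums held 21.4, 16.9 and 17.7 CPM, and RPG3 ranged from 9.48 to 59.6 CPM with a median of 15.8. Values in RPG4 were 18.2 and 6.70 CPM. The 3 classes lay far below RPG1, and the fold changes against SSC1-4 were −3.72 ± 0.32, −3.26 ± 0.19 and −4.37 ± 0.42.

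Mael, a nuage protein required for transposon silencing, kept more of its level than most in RPG3, with a fall of 6.02-fold. It was at 401 to 975 CPM in SSC1-4 with a median of 507 and at 357 to 503 CPM in RPG1. RPG2 held 45.1, 51.0 and 57.8 CPM and RPG3 held 37.4 to 164 CPM with a median of 81.9. The highest RPG3 sum was still far below the lowest SSC1-4 sum. The fold changes were −3.40 ± 0.27 in RPG2, −2.59 ± 0.16 in RPG3 and −3.86 ± 0.34 in RPG4, where the sums held 49.8 and 26.2 CPM.

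Ddx4, the vasa helicase that marks germ cells and passes RNA between PIWI proteins, was at 342 to 749 CPM in SSC1-4 with a median of 411. In RPG1 it kept to a narrow range of 348 to 392 CPM, inside that of SSC1-4. It fell to 70.7, 27.4 and 39.3 CPM in RPG2, to 20.4 to 95.9 CPM in RPG3 with a median of 39.5, and to 31.6 and 18.9 CPM in RPG4. No sum of these classes overlapped with SSC1-4. The fold changes were −3.24 ± 0.26, −3.19 ± 0.16 and −4.12 ± 0.34, a 9.14-fold fall in RPG3 (adjusted p = 2.5e-31, edgeR quasi-likelihood test).

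Tdrd1, a Tudor domain protein that binds methylated Piwil2, was at 75.9 to 229 CPM in SSC1-4 with a median of 114 and at 67.2 to 101 CPM in RPG1. RPG2 held 16.4, 5.64 and 3.32 CPM, RPG3 3.59 to 21.3 CPM with a median of 6.49, and RPG4 4.35 and 3.83 CPM. The classes did not overlap with SSC1-4, and the fold changes were −3.82 ± 0.39, −3.65 ± 0.24 and −4.85 ± 0.53. Tdrd9, a Tudor domain helicase that works with Piwil4, had the fewest UMIs of the 10 and was the exception in its overlap. It ranged from 0 to 43.9 CPM in SSC1-4 with a median of 13.8, from 1.5 to 18.4 CPM in RPG1 and from 0 to 15.5 CPM in RPG3 with a median of 1.16. RPG2 held 1.95, 0.806 and 0.185 CPM, and the RPG4 sums held 0 and 1 UMI. The ranges of SSC1-4, RPG2, RPG3 and RPG4 all reached down to 0 or near it. The fold change was −3.86 ± 0.91 in RPG2 and −2.26 ± 0.49 in RPG3, and both calls were lost with libraries as blocks, over the 2 libraries that held both classes (−4.76 and −1.51). The RPG2 call was also lost without day 14 replicate 6 (−3.32). The call in RPG4 rests on 1 UMI, was lost without either library, and gets no fitted value here.

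Fkbp6, a cochaperone that helps to load piRNAs, was at 445 to 939 CPM in SSC1-4 with a median of 590.3 and at 387 to 611 CPM in RPG1. RPG2 held 80.5, 69.6 and 162 CPM, RPG3 44.9 to 187 CPM with a median of 72.4, and RPG4 32.4 and 26.2 CPM. All sums of these 3 classes were below SSC1-4. Levels are not compared between genes here, since counts at 1 transcript end depend on the gene. The fold changes were −2.58 ± 0.27, −2.69 ± 0.17 and −4.42 ± 0.38. Gtsf1, a small zinc finger protein that PIWI proteins need for slicing, was at 217 to 471 CPM in SSC1-4 with a median of 378 and at 199.7 to 396 CPM in RPG1. It held 38.2, 25.5 and 32.1 CPM in RPG2, 25 to 98.9 CPM in RPG3 and 33.6 and 12.8 CPM in RPG4. All of these sums were below SSC1-4, and the fold changes were −3.54 ± 0.28, −2.85 ± 0.16 and −4.04 ± 0.35.

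Over all 10 genes the class comparisons were read with a call at adjusted p under 0.01 and a fold of at least 2.72 (1 on the natural log scale), over the 19992 genes tested in SSCR. In RPG1 against SSC1-4, none of the 10 genes was called with edgeR or with DESeq2, against 0.365% of all genes called lower and 1.06% called higher. All 10 were fitted lower, by 0.06 to 0.62 on the log2 scale, and 5 had an unadjusted p under 0.05 (Mael, Tdrd1, Gtsf1, Piwil4 and Fkbp6), while 54.4% of all genes were fitted lower and 19% had such a p. None of the 10 lay wholly below the SSC1-4 range in RPG1, against 0.01% of all genes. In RPG2 against SSC1-4 all 10 genes were called lower, against 9.16% of all genes called lower and 7.81% called higher, with a median of −3.63 for the 10 and −0.53 for all genes. Over only the 2 libraries that held both classes, with no block, the count was 6, and Fkbp6 (−2.25), Piwil2 (−1.97), Piwil4 (−3.97) and Tdrd9 (−4.63) lost the call. In RPG3 against SSC1-4 all 10 were called lower, against 14.6% of all genes, with medians of −3.02 and −0.25. In RPG4 against SSC1-4 all 10 were called lower, against 7.11% of all genes called lower and 6.68% higher, with medians of −4.39 (−4.37 without Tdrd9) and −0.54. The genes without overlap with SSC1-4 were 9 of 10 in RPG2, RPG3 and RPG4, all but Tdrd9, against 3.31%, 2.04% and 5.49% of all genes below the SSC1-4 range. A gene at 0 CPM in any SSC1-4 sum, as Tdrd9 was, cannot lie below that range, and all such genes stay in these shares. These comparisons share the SSC1-4 sums.

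**Figure D2:**
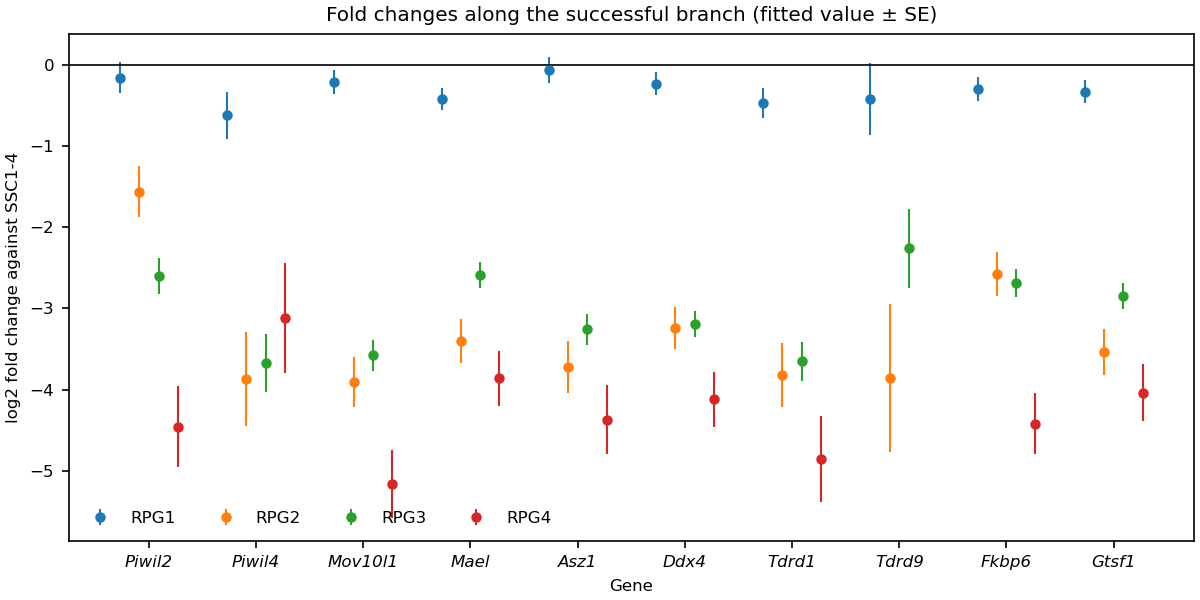
Fitted log2 fold change of each gene against SSC1-4 (y axis) in RPG1 to RPG4, with bars for 1 SE. RPG1 values lie between −0.62 and −0.06 and those of RPG3 between −3.67 and −2.26, and Tdrd9 in RPG4, with 1 UMI in all, is not drawn.

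By class, the gap in level lay between RPG1 and the other 3 classes. In RPG2 against RPG1, 9 of 10 genes were called lower against 7.33% of all genes called lower and 4.81% higher. The exception was Piwil2, at −1.39 ± 0.34 with a fold under the threshold, which was called without day 12 replicate 2 or day 23 replicate 2, while Tdrd9 was lost without day 14 replicate 5 or 6 and with batch as a covariate (−3.06). All 3 RPG2 sums are of batch B2, as are 2 of the 7 RPG1 sums. The RPG2 sums are of days 12 and 14 and the RPG1 sums of days 18, 20 and 23, and no library gave both. Class and day thus cannot be told apart in RPG2 against RPG1, where the lower class was sampled on the earlier days. In RPG3 against RPG1, a comparison added after the data were seen because 7 libraries held cells of both classes, all 10 were called lower against 10.2% of all genes called lower and 6.63% higher, from −1.84 ± 0.56 for Tdrd9 to −3.36 ± 0.21 for Mov10l1. With those 7 libraries as blocks the count was again 10, so the gap was present between cells of the same library. The call of Tdrd9 was lost without any 1 of 6 libraries (day 12 replicate 2, day 18 replicate 5, day 20 replicates 1 and 2, day 23 replicates 1 and 2), and those of the other 9 genes were not. It was also lost with only the 2 classes in the fit (−1.88), over the 7 libraries with no block (−1.74) and without both day 18 libraries (−1.87). In day 18 replicate 5, for example, the 10 genes summed to 2176 CPM in its 28 RPG1 cells and to 206 CPM in its 65 RPG3 cells.

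Between RPG2 and RPG3 no gene was called by edgeR or DESeq2, against 0.920% of all genes called lower and 0.945% called higher. Unadjusted p was under 0.05 for 3 genes, against 20.1% of all genes. They were Piwil2 (−1.05 ± 0.30 in RPG3 against RPG2), Mael (0.81 ± 0.24) and Gtsf1 (0.69 ± 0.25). Piwil2 was thus fitted lower in RPG3 and Mael and Gtsf1 higher, and the intervals of the other 7 genes included 0. The RPG2 sums are of days 12 and 14, and the RPG3 sums, but for day 12 replicate 2, of days 18, 20 and 23. In RPG4 against RPG3, 3 genes were called lower, Piwil2 (−1.86 ± 0.45), Mov10l1 (−1.58 ± 0.36) and Fkbp6 (−1.73 ± 0.33), against 1.79% of all genes called lower and 1.72% higher. This count rests on the 2 RPG4 sums, both from day 20. It was 0 with those 2 libraries as blocks, 0 with only the 2 classes in the fit, 0 without day 20 replicate 2, 1 without replicate 8, 2 without day 23 replicate 2 and 5 without day 20 replicate 1. Within the libraries that held both classes, Piwil2 was at 11.9 CPM in RPG3 and 8.70 in RPG4 in replicate 1, and at 18.3 and 7.08 CPM in replicate 2. In replicate 1, Ddx4 (20.4 and 31.6 CPM), Asz1 (13.6 and 18.2), Piwil4 (1.70 and 7.52) and Tdrd1 (3.59 and 4.35) were higher in RPG4 and the other genes lower. These genes were lower in RPG4 in replicate 2. With the 2 libraries as blocks the fitted changes were −0.85 for Piwil2, −0.47 for Mov10l1 and −0.67 for Fkbp6.

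The 8 RPG3 sums differed among themselves more than those of any other class on the branch, relative to their mean. The 10 genes summed to 193, 206, 224, 263 and 321 CPM in 5 of them (day 20 replicate 2, day 18 replicate 5, day 20 replicate 1, day 18 replicate 3 and day 23 replicate 1). In the other 3 they summed to 580 CPM (day 12 replicate 2), 662 CPM (day 20 replicate 8) and 729 CPM (day 23 replicate 2). These 3 sums were also the highest 3 for each of Piwil2, Mov10l1, Asz1, Ddx4, Tdrd1, Fkbp6 and Gtsf1. In these 3 libraries the cells outside RPG2 to RPG4 gave 81.7%, 84.3% and 63.8% of the UMIs, against 28.2% to 57.6% in the other 5 libraries. Their part in the RPG3 values was not tested. The ranges of the batches overlapped, with 426 ± 252 CPM in the 5 sums of batch B1 and 349.7 ± 202 CPM in the 3 of batch B2.

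Among the SSC clusters the summed level was 3503 ± 415 CPM in SSC1 (28 sums), 2790.3 ± 270.1 in SSC2 (23), 2421 ± 183 in SSC3 (18) and 2947 ± 301 in SSC4 (16). SSC1 cells also had the fewest UMIs of these 4, with a median of 149268 per cell against 286300 in SSC2, 378770.5 in SSC3 and 281650 in SSC4, and the part of depth in this order was not tested. By day, SSC1-4 sums ranged from a mean of 2584 CPM at day 10 (1 sum) to 3595 ± 496 CPM at day 16 (5 sums), and day 0 held 3277 CPM (1 sum). The 3 highest sums, at 3715, 3786 and 4225 CPM, were all from day 16 and from 7 to 10 cells each.

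**Figure D3:**
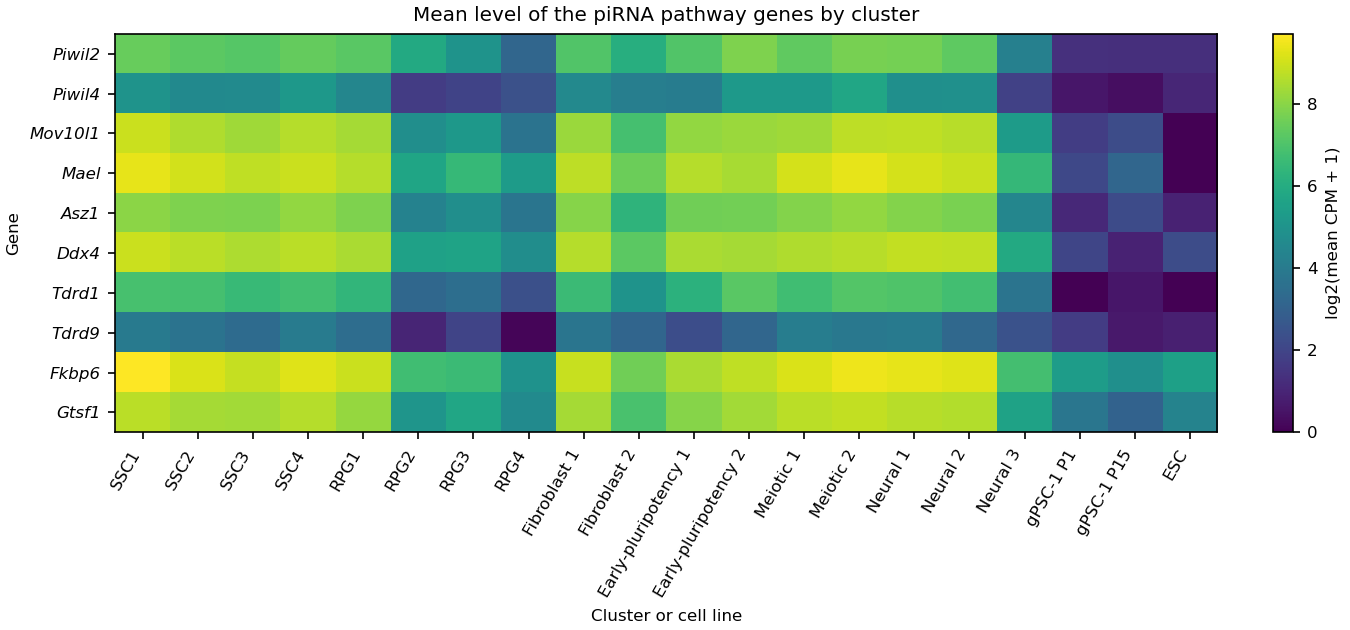
Mean level of each gene, as log2(mean CPM + 1), in the 17 clusters with a sum of at least 5 cells and the 3 cell line libraries. The 10 genes are high in SSC1-4, RPG1 and most clusters of the failed branches, low in RPG2 to RPG4 and Neural 3, and lowest in the lines or, for Tdrd9, in RPG4.

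The failed branches stayed far above RPG2 to RPG4, with Meiotic and Neural near SSC1-4 and Fibroblast and Early-pluripotency somewhat lower. The 10 genes summed to 2262 ± 278 CPM (n = 5) in Fibroblast, 2225 ± 197 (n = 3) in Early-pluripotency, 3256 ± 152 (n = 6) in Meiotic and 2987 ± 523 (n = 12) in Neural. The medians of Fibroblast (2373 CPM) and Early-pluripotency (2175 CPM) were below the lowest SSC1-4 sum (2393 CPM). None of the 10 genes was called against SSC1-4 in any of the 4 with edgeR or DESeq2, against 0.01%, 0.0550%, 0.0850% and 0.360% of all genes called lower and 3.74%, 0.245%, 0.325% and 2.11% called higher. Genes with an unadjusted p under 0.05 numbered 3 in Fibroblast (Fkbp6, Mael and Mov10l1), 3 in Early-pluripotency (the same 3), 2 in Meiotic (Gtsf1 and Piwil4, both fitted higher) and 0 in Neural, against 17.6%, 15.2%, 14.9% and 25.7% of all genes. The largest fitted shifts were −1.35 ± 0.70 for Tdrd9 in Early-pluripotency and 0.59 ± 0.28 for Piwil4 in Meiotic. Fitted values were lower than SSC1-4 for all 10 genes in Fibroblast and in Early-pluripotency, for 1 gene, Ddx4, in Meiotic and for 3 in Neural. The shares of all genes fitted lower were 56.8%, 57.4%, 51.9% and 50.7%.

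Single clusters of these branches departed from their class. In Fibroblast 2 the 10 genes summed to 188 CPM in day 10 replicate 1 (8 cells), 595 CPM in day 8 replicate 1 (20 cells) and 2126 CPM in day 27 replicate 5 (6 cells), against 2248 to 2738 CPM in the 4 sums of Fibroblast 1. The 3 Fibroblast 2 sums held 3011, 4612 and 1549 CPM of the 6 feeder fibroblast markers and those of Fibroblast 1 held 188 to 329 CPM. Neural 3 held 263 and 548 CPM of the 10 genes in day 27 replicates 1 and 2, against 2807 to 3694 CPM in the 8 sums of Neural 1. It too carried feeder markers, at 1063 and 1128 CPM, and Sertoli markers at 299.6 and 443 CPM. All 5 sums of these 2 clusters thus carried markers of other cell types, and 4 of the 5, all but that of day 27 replicate 5, were low in the piRNA genes. The part of such cells in these values was not tested. By cluster mean, Mov10l1, Mael, Ddx4 and Fkbp6 were highest in SSC1, Asz1 in SSC4, Piwil2 and Tdrd1 in Early-pluripotency 2, Piwil4 and Gtsf1 in Meiotic 2 and Tdrd9 in Meiotic 1. The first and second clusters in this order differed by less than 1.5-fold for every gene (at most 1.42), with Mael at 652 and 651 CPM in SSC1 and Meiotic 2.

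In the established lines, Tdrd1 had 0 UMIs in gPSC-1 P1 and in ESCs and 5 UMIs in gPSC-1 P15, so its SSC1-4 mean was at least 479-fold over gPSC-1 P1 and at least 534-fold over ESCs, against a floor of 3 counts per library. Mov10l1 and Mael had 0 UMIs in ESCs (at least 1836-fold and 2467-fold under SSC1-4), by the same floor. Mov10l1 had 28 UMIs at gPSC-1 P1 (2.3 CPM, exact 95% Poisson interval 1.53 to 3.33), all in 1 of 48 cells, and 39 at P15 (3.71 CPM, 2.64 to 5.07) in 12 of 32 cells, with 24 of them in 1 cell. Mael had 39 UMIs at P1 (3.21 CPM, 2.28 to 4.38) in 9 cells and 83 at P15 (7.90 CPM, 6.29 to 9.79) in 25 cells, with 18 and 37 in the top cell. Single cells also held 25 of the 27 Tdrd9 UMIs and all 6 Piwil4 UMIs of P1, 25 of the 37 Asz1 UMIs of P15, and all of the 12 Asz1 and 11 Tdrd9 UMIs of the 45 ESCs. The floors and intervals take UMIs as independent and cover counting error only, and with 1 library per line there is no test between lines.

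The other genes are given by their level and by the fold of the SSC1-4 mean over it. Ddx4 was at 2.96 CPM (2.07 to 4.10) in gPSC-1 P1, 0.856 CPM (0.391 to 1.63) in P15 and 3.76 CPM (2.80 to 4.94) in ESCs, which is 146-, 506- and 115-fold under SSC1-4. Piwil2 was at 1.48, 1.43 and 1.47 CPM, and Asz1 at 1.15, 3.52 and 0.884 CPM. Piwil4 was at 0.493, 0.285 (3 UMIs, 118-fold under SSC1-4 with an interval of 40.5 to 574) and 1.03 CPM, and Tdrd9 at 2.22, 0.571 and 0.810 CPM, 6.21-, 24.2- and 17-fold under SSC1-4. Fkbp6 was at 39.5 CPM (36.1 to 43.2) in gPSC-1 P1, 26.8 CPM (23.8 to 30.1) in P15 and 44.2 CPM (40.7 to 47.9) in ESCs, 15.8-, 23.3- and 14.1-fold under SSC1-4. Gtsf1 was at 12.8, 7.04 and 18.9 CPM, 28.9-, 52.6- and 19.6-fold under. The folds of Tdrd9, Fkbp6 and Gtsf1 were thus smaller than those of the other genes with a UMI in gPSC-1 P1, in P15 and in ESCs. That of Tdrd9 rests mostly on 1 cell at P1 and wholly on 1 cell in ESCs. The fold intervals of Gtsf1 and Piwil4 overlapped in each line (17.4 to 22.3 and 19.5 to 59.9 in ESCs). In P15 and ESCs that of Tdrd9 overlapped with that of Piwil4 too (9.51 to 34.1 for Tdrd9 in ESCs).

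Per cell the shift was one of most cells and not of a few. Each cell was thinned to 50000 UMIs and shallower cells were left out (165 of SSC1-4, 21 of RPG1, 2 of RPG2, 7 of RPG3 and 0 of RPG4). The median number of UMIs over the 10 genes was 152 in 2100 SSC1-4 cells, with quartiles of 131 and 175, and 128 in 312 RPG1 cells (105 and 150). It was 13 in 45 RPG2 cells (10 and 19), 10 in 254 RPG3 cells (6 and 16) and 9 in 33 RPG4 cells (6 and 15). The upper quartile of RPG3 thus lay below the lowest SSC1-4 cell, which held 35. Single cells crossed the gap: RPG3 reached 97 UMIs in its highest cell and RPG1 went down to 8 in its lowest. In the lines the medians were 1 in gPSC-1 P1, 3 in P15 and 2 in ESCs.

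The share of cells with a UMI is given gene by gene and, like the level, is not compared between genes. For Ddx4 it was 100% of SSC1-4 cells (2100 of 2100), 99.7% of RPG1, 77.8% of RPG2 (exact 95% interval 62.9 to 88.8), 65.0% of RPG3 (58.7 to 70.8), 78.8% of RPG4 (61.1 to 91.0) and 11.6% of ESCs (3.89 to 25.1). For Tdrd1 it was 93.5% of SSC1-4, 86.9% of RPG1, 25.2% of RPG3 (20 to 31), 3.03% of RPG4 (0.0767 to 15.8) and 0 of 43 ESCs, which allows a share of cells with a UMI of up to 6.98% (3 counts of the total). For Asz1 it was 99.5% of SSC1-4, 46.1% of RPG3 (39.8 to 52.4) and 2.33% of ESCs (0.0589 to 12.3). For Fkbp6 it was 83.1% of RPG3 (77.9 to 87.5) and 53.5% of ESCs (37.7 to 68.8), and for Gtsf1 65.7% (59.6 to 71.6) and 48.8% (33.3 to 64.5). For Mael it was 81.9% of RPG3 (76.6 to 86.4) and for Mov10l1 55.9% (49.6 to 62.1), with 0 of 43 ESCs for both. Piwil2 had a UMI in 44.1% of RPG3 cells and 6.98% of ESCs, Piwil4 in 9.06% and 4.65%, and Tdrd9 in 3.94% and 2.33%. The ESCs are 1 library, and intervals over cells give no test between RPG3 and ESCs. Without thinning the shares of Ddx4, Tdrd1 and Asz1 in RPG3 rose to 94.6%, 68.2% and 87.0%, at a median depth of 285699 UMIs per cell against 248474 in SSC1-4 and 321636 in ESCs.

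**Figure D4:**
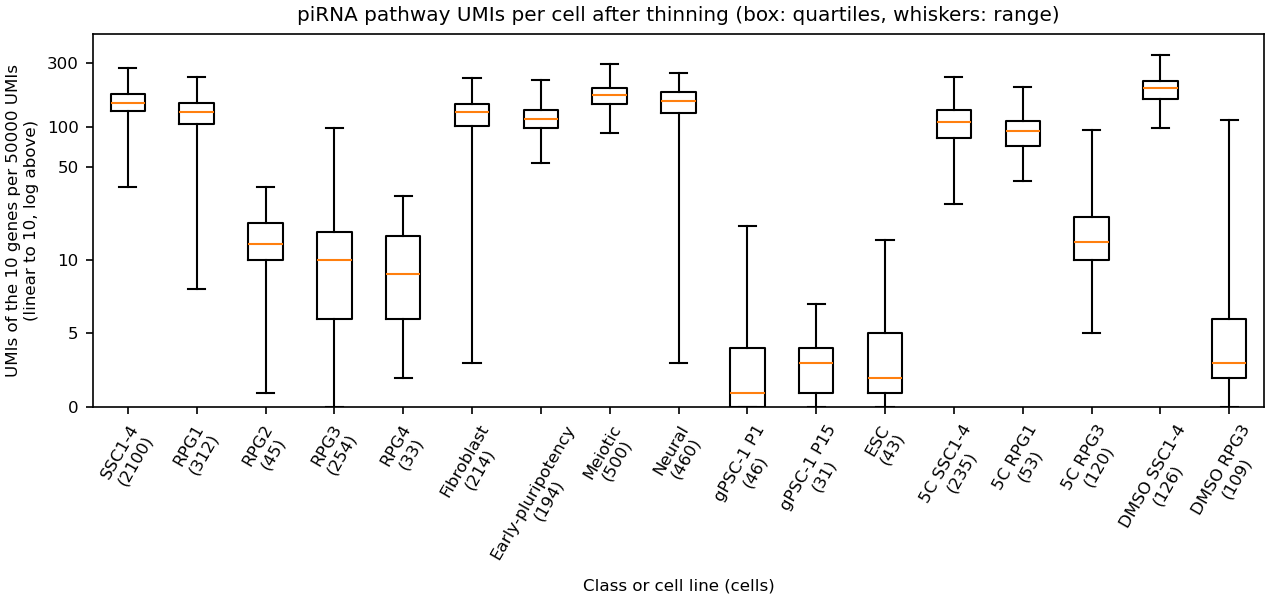
UMIs of the 10 genes together per cell after thinning to 50000 UMIs, by class or line (boxes are quartiles with the median, whiskers the full range, y axis linear to 10 and logarithmic above). The median is 152 in SSC1-4, 128 in RPG1, 10 in RPG3, 13.5 in RPG3 of 5C culture and 3 in RPG3 of DMSO culture.

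The 5C and DMSO samples show the same genes in cells that the clustering did not use, and in 2 culture conditions. Their classes were those the authors predicted with a classifier trained on the SSCR cells, which can read these genes too. The summed level in 5C was 2014 ± 206 CPM for SSC1-4 (8 samples), 1683 ± 110.3 for RPG1 (4 samples), 409 ± 170 for RPG2 (3 samples), 389 ± 76.2 for RPG3 (6 samples) and 669 for RPG4 (1 sample, 5 cells). That in DMSO was 3793 ± 382 CPM for SSC1-4 (3 samples), 2464 ± 46.8 for RPG1 (2 samples), 64.2 for RPG2 (1 sample), 193 ± 78.6 for RPG3 (2 samples) and 33.9 and 37.5 for RPG4 (2 samples). In both cultures RPG3 lay far below RPG1, and RPG1 overlapped with SSC1-4 in 5C but not in DMSO. In RPG1 against SSC1-4 in 5C none of the 10 genes was called by edgeR or DESeq2, against 0.00% of all 14940 genes called lower and 0.0335% higher, and 1 (Mov10l1, −0.60 ± 0.23) had an unadjusted p under 0.05. In RPG3 against SSC1-4, 9 of 10 genes were called lower in 5C against 7.16% of all genes called lower and 7.77% higher, and all 10 in DMSO against 6.57% lower and 8.10% higher. The gene not called in 5C was Piwil2, at −1.11 ± 0.21 with a fold under the threshold. The call of Tdrd9 was lost without 5C replicate 2 (−2.09) or 6 (−2.51), and in DMSO without replicate 2 (−5.46).

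The cultures differed in the depth of the fall. The difference of RPG3 against SSC1-4 between 5C and DMSO, an interaction term in the same fit, was called for 6 genes against 0.576% of all genes called in that direction and 0.884% in the other. They were Tdrd1 (3.35 ± 0.68), Piwil2 (3.16 ± 0.44), Asz1 (3.04 ± 0.63), Fkbp6 (2.00 ± 0.33), Ddx4 (1.95 ± 0.35) and Mov10l1 (1.82 ± 0.42), and a positive value means a smaller fall in 5C. All 10 genes had a positive value, with a median of 2.52 against 0.04 over all genes. The DMSO side of RPG3 rests on replicates 1 and 2, both of day 20, and its SSC1-4 side on replicates 3, 4 and 5, so no DMSO sample gave both classes. Leaving out DMSO replicate 2 leaves 1 DMSO RPG3 sample. The calls of Tdrd1 (2.69), Asz1 (2.26), Ddx4 (1.63), Fkbp6 (1.55) and Mov10l1 (1.23) were then lost, with values still positive. Without DMSO replicate 4 the call of Mov10l1 was lost (1.8).

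The SSC1-4 sums of 5C were of days 12, 14 and 16, and those of DMSO of day 20, day 24 and a mix of days 0 and 24 (replicates 3, 4 and 5), so treatment and day cannot be told apart here or in the interaction. None of the 10 genes was called in 5C against DMSO in SSC1-4 by edgeR or DESeq2, against 1.36% of all genes called lower and 1.27% higher, but all 10 were fitted lower in 5C, 9 with an unadjusted p under 0.05, while 47.8% of all genes were fitted lower and 22.9% had such a p. Gtsf1 was at 72.4 to 233 CPM in the 8 samples of 5C (median 183) and at 379, 415 and 424 CPM in DMSO, a difference of −1.26 ± 0.26 (adjusted p = 0.000566, fold 2.4). Mael was at 318 to 424 CPM in 5C (median 355) and at 695, 747 and 697 CPM in DMSO, a difference of −0.98 ± 0.17 (adjusted p = 5.4e-05). Fkbp6 was at 397 to 573 CPM in 5C (median 542) and at 900, 1049.9 and 1146 CPM in DMSO, at −0.98 ± 0.19 (adjusted p = 0.00028). The folds of these 3 genes stayed under the threshold of 2.72. All 5C samples were below all DMSO samples for 7 of the 10 genes (these 3, Piwil2, Mov10l1, Ddx4 and Tdrd1), against 8.87% of all genes, and above them for 0, against 6.50%. In RPG1, where the DMSO sums were both of day 20 and those of 5C of days 12 to 16, none was called by edgeR or DESeq2, against 0.301% of all genes called lower and 0.308% higher, 4 had an unadjusted p under 0.05 against 18.4% of all genes, and 8 were fitted lower in 5C against 39.1% of all genes.

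In RPG3 the direction was the other way, and 3 genes were called higher in 5C against 1.02% of all genes called higher and 0.763% lower. Piwil2 was at 91.5, 54.8, 50.2, 54.8, 108 and 95.9 CPM in replicates 1, 3, 5, 6, 7 and 8 of 5C and at 21.2 and 7.75 CPM in replicates 1 and 2 of DMSO (2.4 ± 0.37). Asz1 was at 43.5, 19.5, 18.7, 19.3, 12.1 and 17 CPM in 5C and at 6.31 and 0.830 CPM in DMSO (2.64 ± 0.55). Tdrd1 was at 14.2, 12.4, 4.92, 8.60, 3.54 and 4.64 CPM in 5C and at 2.58 and 0.553 CPM in DMSO (2.29 ± 0.60). All 5C samples were above both DMSO samples for 4 of the 10 genes, these 3 and Ddx4, against 9.48% of all genes, and below them for 0, against 16.9%. The DMSO values of Asz1 and Tdrd1 rest on 25 and 11 UMIs. Ddx4 (1.23 ± 0.28) and Fkbp6 (1.02 ± 0.27) passed the adjusted p but not the fold, while Mael (0.23 ± 0.23) and Gtsf1 (0.06 ± 0.36) had intervals that included 0. Piwil4 and Tdrd9 had 3 UMIs each in DMSO RPG3. Leaving out either DMSO sample leaves 1 in that group, and without DMSO replicate 2 the call of Asz1 was lost (1.86). The call of Tdrd1 was lost without either DMSO sample (3.66 without replicate 1, 1.62 without replicate 2), without 5C replicate 1 (1.89), 3 (2.2) or 6 (2.27), and with at least 10 cells per sum (2.23).

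By cell, after the same thinning, Asz1 had a UMI in 54.2% of 120 RPG3 cells of 5C (44.8 to 63.3) and in 1.83% of 109 of DMSO (0.223 to 6.47). Piwil2 had a UMI in 80.8% (72.6 to 87.4) and in 17.4% (10.8 to 25.9). Cells shallower than 50000 UMIs, 25 of 5C and 31 of DMSO, were left out. The RPG3 cells of 5C came from days 12, 14 and 16 and those of DMSO from day 20, so treatment and day cannot be told apart. Cells outside RPG2 to RPG4 gave 26.8% to 90.9% of the UMIs of the 5C samples with RPG3 sums and 5.57% and 10.1% in DMSO, and their part in the RPG3 values was not tested.

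**Figure D5:**
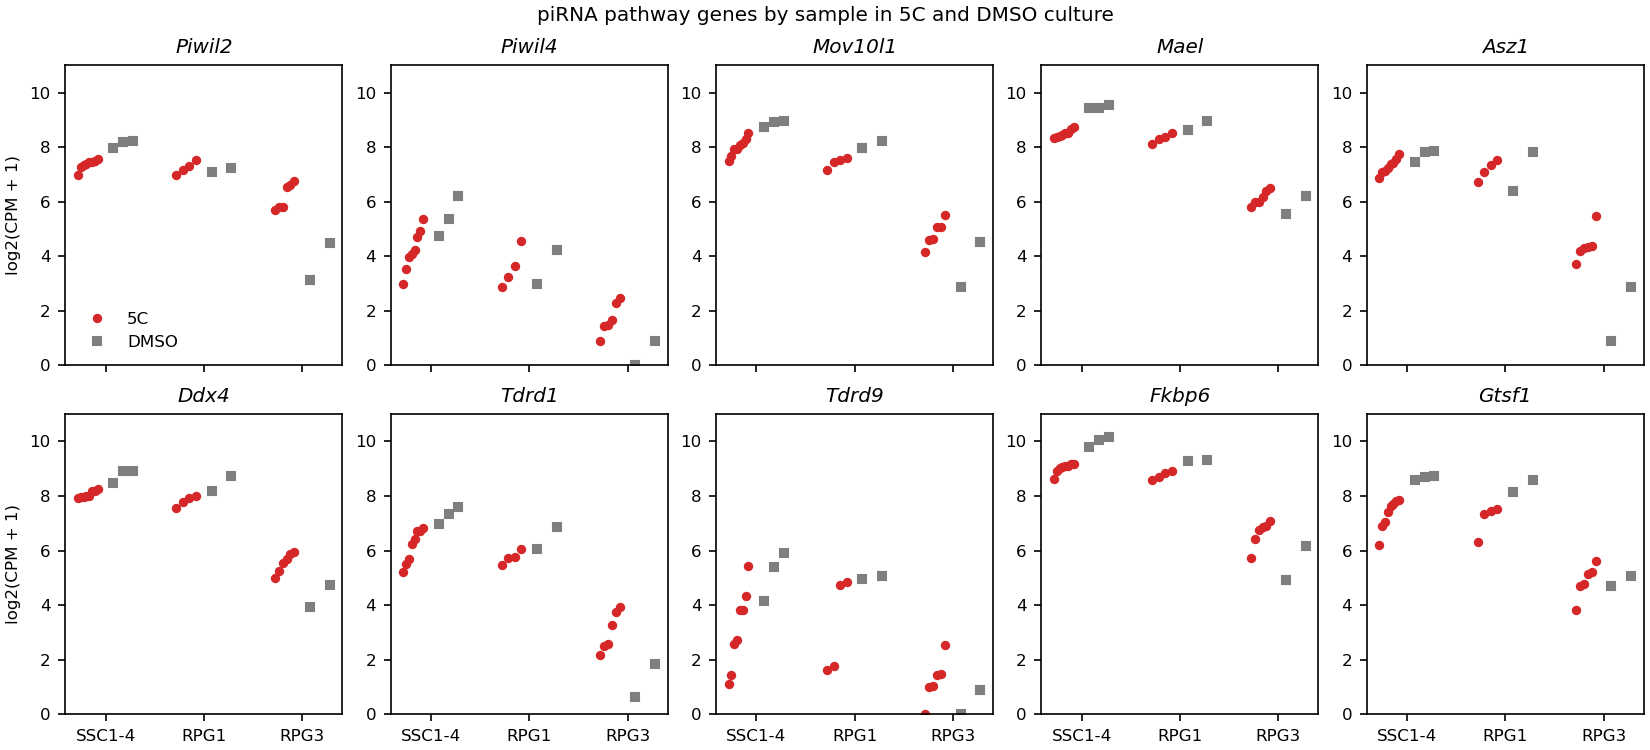
Level of each gene, as log2(CPM + 1), in every sample of 5C (circles) and DMSO (squares) for SSC1-4, RPG1 and RPG3, sorted by value within a group for legibility. In RPG3 the 5C samples of Piwil2 lie at 50.2 to 108 CPM and those of DMSO at 7.75 and 21.2 CPM.

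The rest of the pathway was read from a list of 27 further genes, of which 25 were tested. In RPG3 against SSC1-4, 17 of the 25 were called lower and 3 higher, against 14.6% and 11.1% of all genes, with a median of −2.39 against −0.25 over all genes. In RPG1 against SSC1-4 it was 1 lower and 2 higher, against 0.365% and 1.06% of all genes. In RPG2 it was 11 and 2, against 9.16% and 7.81%, and in RPG4 18 and 1, against 7.11% and 6.68%. The 3 called genes with the lowest fitted fold changes in RPG3 were Tdrd6, Henmt1 and Spocd1, where the place of Tdrd6 rests on a fitted value against 0 UMIs that its bound does not bear out. Tdrd6, of the chromatoid body of spermatids, was hardly present to begin with, at 0.287 ± 0.434 CPM in SSC1-4 and 0 UMIs in RPG3 (at least 7.29-fold lower, with a floor of 3 counts over the class). Henmt1, which methylates the ends of piRNAs, went from 62.7 ± 15.5 to 3.83 ± 3.06 CPM (−4.23 ± 0.29). Spocd1, a factor of piRNA-directed DNA methylation, went from 10.3 ± 5.83 to 0.880 ± 0.902 CPM (−3.78 ± 0.62).

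The 3 genes that rose were Gtsf1l, Dnmt3l and Morc1. Gtsf1l, a paralogue of Gtsf1, went from 0.956 ± 1.83 CPM in SSC1-4 to 14.5 in RPG1, 212 in RPG2 and 333 ± 74.0 in RPG3 (8.74 ± 0.57 in RPG3), and it was at 199.6, 180.4 and 227 CPM in gPSC-1 P1, P15 and ESCs. In RPG4 it was at 15.6 CPM. Gtsf1 was called lower in RPG3 against SSC1-4, where Gtsf1l was called higher. Dnmt3l, the cofactor of de novo DNA methyltransferases, went from 12.5 ± 7.76 to 514 ± 70.1 CPM (5.29 ± 0.31), with 37.3 CPM in RPG1, 94 in RPG2 and 16.3 in RPG4, and was at 230, 22.7 and 45.7 CPM in the lines. Morc1, an ATPase that represses transposons in germ cells, went from 64.8 ± 16.5 to 302 ± 89.1 CPM (2.22 ± 0.14), fell to 9.78 CPM in RPG4, and was at 456, 347 and 414 CPM in the lines. The 5 genes that were not called, named after their values were seen, were Tdrd12 (−0.40 ± 0.14), Tcfl5 (−0.43 ± 0.34), Wdr77 (0.05 ± 0.09), Prmt5 (0.94 ± 0.09, past the adjusted p but not the fold) and Mybl1 (1.01 ± 0.48). Prmt5 and Wdr77 form the enzyme that methylates PIWI proteins for Tudor binding and serve many other substrates. Tdrd12 was at 138 ± 29.1 CPM in SSC1-4, 105 ± 25.1 in RPG3, 6.64 in RPG4 and 72.3, 68.2 and 102 CPM in the lines.

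Across the 17 clusters and 3 lines, the 10 genes followed each other, with Pearson's r of log2(mean CPM + 1) between a gene and the mean of the standardised levels of the other 9 from 0.887 (Tdrd9) to 0.994 (Tdrd1). Among the 9738 other genes at 10 CPM or more on average, the 5 most like the mean of the 10 were Tex12 (r = 0.996), Brdt (0.994), Sycp1 (0.993), Afp (0.992) and Mageb4 (0.992). Tex12 and Sycp1 are parts of the synaptonemal complex and Brdt is a testis bromodomain protein. Sycp1 was at 529 CPM in SSC1-4, 448 in RPG1, 43.0 in RPG3 and 2.95 in ESCs. Afp, best known from fetal liver, was at 242 CPM in SSC1-4, 212 in RPG1, 23.4 in RPG3 and 0 in ESCs. These correlations describe 20 points that share libraries and one large step between germ-like and pluripotent clusters.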

How the data were processed

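Single-cell RNA was measured by modified STRT-seq and scTrio-seq2. The deposited counts are UMI counts per gene and cell, which the authors made with STAR 2.7.2b on mm10 and featureCounts 2.0.0 after their own quality control. Cell classes are the authors' deposited annotation. Methylation samples were not analysed here. Genes listed in only 1 of the 5C and DMSO tables were set to 0 in the other. Counts were summed per library and class (at least 5 cells) and fitted with edgeR 4.0.16 (R 4.3.3) by the quasi-likelihood test with TMM scaling, over 19992 genes (STRT-seq) and 14940 genes (scTrio-seq2), with Benjamini-Hochberg adjustment over all genes and all classes in 1 fit per data set. DESeq2 1.42.0 was the other test. CPM values are means of sums with SD. Intervals of counts and of shares of cells are exact at 95% and cover counting error only. Those of fold changes are approximate 95% intervals from the fitted value and its SE, which was derived from the test statistic and measures the spread between libraries. The scripts were tested on simulated data.

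The members and gene lists were chosen with earlier results of these data known. Named further genes are those of the list with the 3 highest and 3 lowest fitted fold changes among those called in RPG3. Libraries with both RPG3 and RPG1 sums deviated together (r of 0.148 to 0.347 over 7 libraries), so cells of 1 library are paired there.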

Additional observations from a re-analysis of the deposited data

Results flagged for a closer look

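Of 70 groups of 4 to 10 values examined, 5 held a sample that stood far from the rest, and chance alone gives about 1 in 20. Of these 5, 4 concern Tdrd9, the gene with the fewest UMIs. Tdrd9 was at 19.2 CPM in day 14 replicate 2 of Fibroblast, with the other 4 sums at 8.77 to 10.8 CPM. It was at 15.5 CPM in day 20 replicate 8 of RPG3, with the others at 0 to 3.76 CPM. In RPG3 of 5C it was at 4.74 CPM in replicate 1, with the others at 0 to 1.77 CPM, and in SSC1-4 of 5C at 41.7 CPM in replicate 2, with the others at 1.15 to 19.2 CPM. Asz1 was at 43.5 CPM in replicate 1 of RPG3 in 5C, with the others at 12.1 to 19.5 CPM.

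The fall from SSC1-4 to RPG3 differed between 5C and DMSO by the interaction term for 6 genes, with 5C minus DMSO on the log2 scale at 3.04 for Asz1, 1.95 for Ddx4, 2.0 for Fkbp6, 1.82 for Mov10l1, 3.16 for Piwil2 and 3.35 for Tdrd1. The DMSO values rest on 2 RPG3 samples, and treatment and day cannot be told apart.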

How the results depend on the processing

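The 80 called values of single genes were recomputed 2162 times under other settings. They kept direction and call in 2098, lost the call in 64 and reversed in 0. Counts of called genes that moved by over 1.5 times were few. RPG2 against SSC1-4 gave 6 in place of 10 with only the 2 shared libraries and no block. RPG4 against RPG3 gave 0 in place of 3 with only the 2 classes, with the replicate block, with the shared libraries and no block, and with sums per batch and day, and 0 to 5 leaving out 1 library. 5C against DMSO in SSC1-4 gave 3 in place of 0 with the replicate number as a block, where the numbers do not pair the samples (r of −0.0194 to 0.0485). Leaving out 1 sample gave 1 to 5 in place of 3 for 5C against DMSO in RPG3 and 1 to 7 in place of 6 for the interaction. The block changed no other count by over 1.5 times, and calls lost under it stand beside their values. DESeq2's test and size factors gave the same counts. No paired analysis was possible because fewer than 2 libraries or numbers were shared for RPG4 against SSC1-4, RPG2 against RPG1, RPG3 against RPG2, the interaction, RPG3 against SSC1-4 in DMSO, and 5C against DMSO in RPG1 and RPG3. Over the total UMIs of the library the summed level was 57.4 CPM in gPSC-1 P1 and 65.1 in ESCs. The median share of cells with a UMI over the 10 genes was 99.7% in SSC1-4, 51.0% in RPG3 and 3.49% in ESCs. It was 99%, 21.9% and 0% for at least 2 UMIs, and 88.3% in RPG3 without thinning. Depth limits Tdrd9 and Piwil4, with 3 UMIs each in RPG3 of DMSO.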
